A study of Mus musculus with 18 samples.

Results

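The 10 genes described here mark the GABAergic interneurons of the mouse hippocampus and were taken by their symbols (Sst, Npy, Pvalb, Gad1, Gad2, Slc32a1, Vip, Calb2, Reln and Cort) out of 55291 gene symbols. All 10 symbols were found in each of the 18 libraries. RNA came from the right hippocampus of male C57BL/6J mice, labelled WT and given as 6 weeks old at injection, each sample pooling 3 to 4 hippocampi. All mice carried an AAV that expresses EGFP-Rpl10a, a GFP-tagged ribosomal protein, under the astrocyte promoter GfaABC1D. Translating ribosome affinity purification (TRAP) with an anti-GFP antibody gave an IP library from each sample, and an input library was made from the same homogenate before the purification. In the KA group kainic acid, a glutamate receptor agonist that models mesial temporal lobe epilepsy, was given to the right dentate gyrus 2 weeks after the virus, and the hippocampi were taken 14 days after that injection. The AAV-Control group received the AAV alone and was collected 2 weeks after it. The PBS group received PBS after the AAV. Each group had 3 samples. Run 1 held samples #1 and #2 of KA and of AAV-Control, run 2 their samples #3, and run 3 only PBS samples, so that PBS and run cannot be told apart. The KA and AAV-Control mice also differed in a second injection and in the time from the virus to collection, and these cannot be told apart from KA itself.

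Interneurons are the inhibitory neurons of the hippocampus. They make GABA with the glutamate decarboxylases GAD67 (Gad1) and GAD65 (Gad2) and load it into vesicles with the transporter VGAT (Slc32a1). Their classes are told apart by neuropeptides (Sst, Npy, Vip, Cort), calcium-binding proteins (Pvalb, Calb2) and the extracellular matrix protein reelin (Reln). Loss of somatostatin cells of the hilus and ectopic expression of neuropeptide Y in granule cells are widely described in models of temporal lobe epilepsy. Several of the markers are not exclusive to interneurons: Calb2 is also made by mossy cells of the mouse and by immature granule cells, and Reln by Cajal-Retzius cells.

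The promoters of Sst, Cort, Npy and Pvalb are shown because these genes passed the test in the input libraries or had the largest difference between the KA and control IP libraries. The sequences are from RefSeq on GRCm38.p6, run from 250 bases before to 50 bases after the gene start, and are given 5′ to 3′ on the strand of the gene. Capitals mark a full cAMP response element (CRE, TGACGTCA), which is palindromic, and the windows without one are in lower case throughout.
Sst promoter, chr16:23890795-23891094, minus strand: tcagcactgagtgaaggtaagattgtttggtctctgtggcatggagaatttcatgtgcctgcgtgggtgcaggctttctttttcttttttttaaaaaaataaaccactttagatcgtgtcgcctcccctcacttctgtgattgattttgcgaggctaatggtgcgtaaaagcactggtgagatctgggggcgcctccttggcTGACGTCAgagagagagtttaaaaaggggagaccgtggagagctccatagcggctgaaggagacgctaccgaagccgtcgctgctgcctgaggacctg
Cort promoter, chr4:149126714-149127013, minus strand: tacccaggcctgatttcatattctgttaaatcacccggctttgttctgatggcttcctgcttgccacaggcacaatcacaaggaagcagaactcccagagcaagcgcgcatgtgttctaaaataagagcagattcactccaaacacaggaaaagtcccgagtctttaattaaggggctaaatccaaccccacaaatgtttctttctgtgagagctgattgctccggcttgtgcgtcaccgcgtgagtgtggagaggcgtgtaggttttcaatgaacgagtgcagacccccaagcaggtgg
Npy promoter, chr6:49822460-49822759, plus strand: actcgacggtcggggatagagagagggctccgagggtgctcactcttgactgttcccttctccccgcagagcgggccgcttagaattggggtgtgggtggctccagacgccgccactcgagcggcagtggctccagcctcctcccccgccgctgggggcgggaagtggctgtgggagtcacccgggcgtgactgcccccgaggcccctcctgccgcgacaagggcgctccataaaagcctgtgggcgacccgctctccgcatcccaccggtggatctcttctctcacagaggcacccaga
Pvalb promoter of the first of its 2 RefSeq starts, chr15:78206351-78206650, minus strand: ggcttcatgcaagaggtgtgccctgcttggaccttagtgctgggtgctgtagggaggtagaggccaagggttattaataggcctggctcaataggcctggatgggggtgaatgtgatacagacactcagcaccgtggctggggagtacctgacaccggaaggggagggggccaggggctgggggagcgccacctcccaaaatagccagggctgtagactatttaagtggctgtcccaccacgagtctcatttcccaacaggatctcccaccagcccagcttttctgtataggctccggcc
A RefSeq promoter was found for 9 of the 10 genes, and Calb2 had none in the table. The full CRE was found in the Sst promoter alone among the 9, at -48 bases from the start, and in 1.79% of 32851 mouse promoters of the same length. The 5-letter core TGACG, searched on either strand and contained in the full CRE, was also found at -18 in Cort, at -33 in Gad2 and at -79 in Vip, and 20.8% of all promoters hold it. Neither the CRE nor its core was found in the windows of Npy and Pvalb.

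The 18 libraries held 7991681 to 16032180 counts each (median 10313125). The input libraries carry the label of hippocampal astrocytes, yet held RNA of many cell types: the summed FPKM of 14 pan-neuronal genes was 1796 to 2462 there, against 301 to 880 for 10 astrocyte genes. In the IP libraries the astrocyte sum was 2374 to 5203. Genes of other cell types also differed between groups. The summed FPKM of 8 microglia genes in the input was 1370 to 2230 in KA and 110 to 237 in the AAV-Control and PBS samples. Pan-neuronal sums in the IP libraries were 690.1 to 885 in KA, against 236 to 291 in AAV-Control and 234 to 366 in PBS, and 7 oligodendrocyte genes summed to 1336 to 2531 in KA IP, against 252 to 1060 in the control IP libraries. Of 13 pan-neuronal genes tested in the IP, 6 were called higher against AAV-Control and 5 against PBS, and 0 lower. Elavl4 of that list was not above 1 FPKM in all libraries compared and was not tested. Its FPKM in IP over that in input was 0.109 in KA, 0.228 in AAV-Control and 0.231 in PBS. The CA pyramidal cell sum in the IP was 119 to 168 in KA and overlapped the controls (94.9 to 142). For markers tested in the IP, fold changes with libraries scaled by the pan-neuronal genes are given as well. This scaling shifts all genes together, by a median of -1.16 in KA against AAV-Control IP, so that fold changes there become lower by construction.

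**Figure D1:**
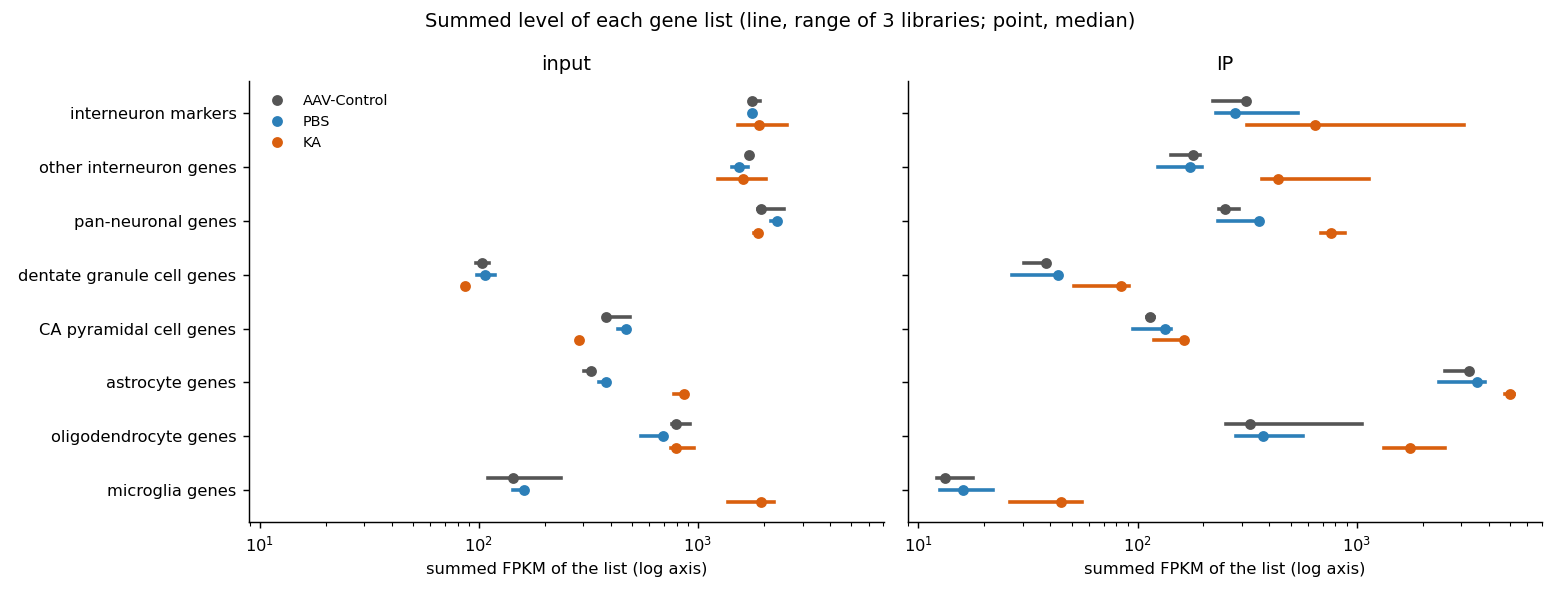
Summed FPKM of 8 gene lists (log axis) in the input libraries (left) and the IP libraries (right), with a line for the range and a point for the median of 3 libraries per group. Sums of microglia and astrocyte genes in input and IP do not overlap between KA and both control groups, with KA higher. In the IP the same holds for pan-neuronal, oligodendrocyte, dentate granule cell and other interneuron genes. CA pyramidal and dentate granule cell sums in the input do not overlap either, with KA lower. Of the 10 astrocyte genes in the IP, 1 (Gfap) was called higher and 3 lower in KA against each control group. Their median log2 fold change was -0.54 against AAV-Control and -0.32 against PBS.

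In the AAV-Control input Sst had the highest level of the 10 genes, 1265 ± 40.5 FPKM (SD, n = 3), followed by Npy at 334 ± 153 and Pvalb at 119 ± 23.1. FPKM divides a count by gene length and library size, so that levels can be compared between genes. Calb2 (26.9 ± 2.02) and Cort (25.6 ± 1.58) followed, and their ranges overlapped. Gad1 (20.8 ± 3.13), Gad2 (17.02 ± 1.04), Vip (6.81 ± 0.505), Slc32a1 (1.76 ± 0.372) and Reln (1.01 ± 0.119) came after them, with ranges that did not overlap between neighbours. Slc32a1 rested on only 37 to 64 counts per input library. Reln rested on 194 to 411 counts over a length of 23722 bases, the length implied by its count and FPKM. After KA the order changed at the top: Npy had 944 ± 528 FPKM and Sst 889 ± 85.6 in the input, with overlapping ranges.

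**Figure D2:**
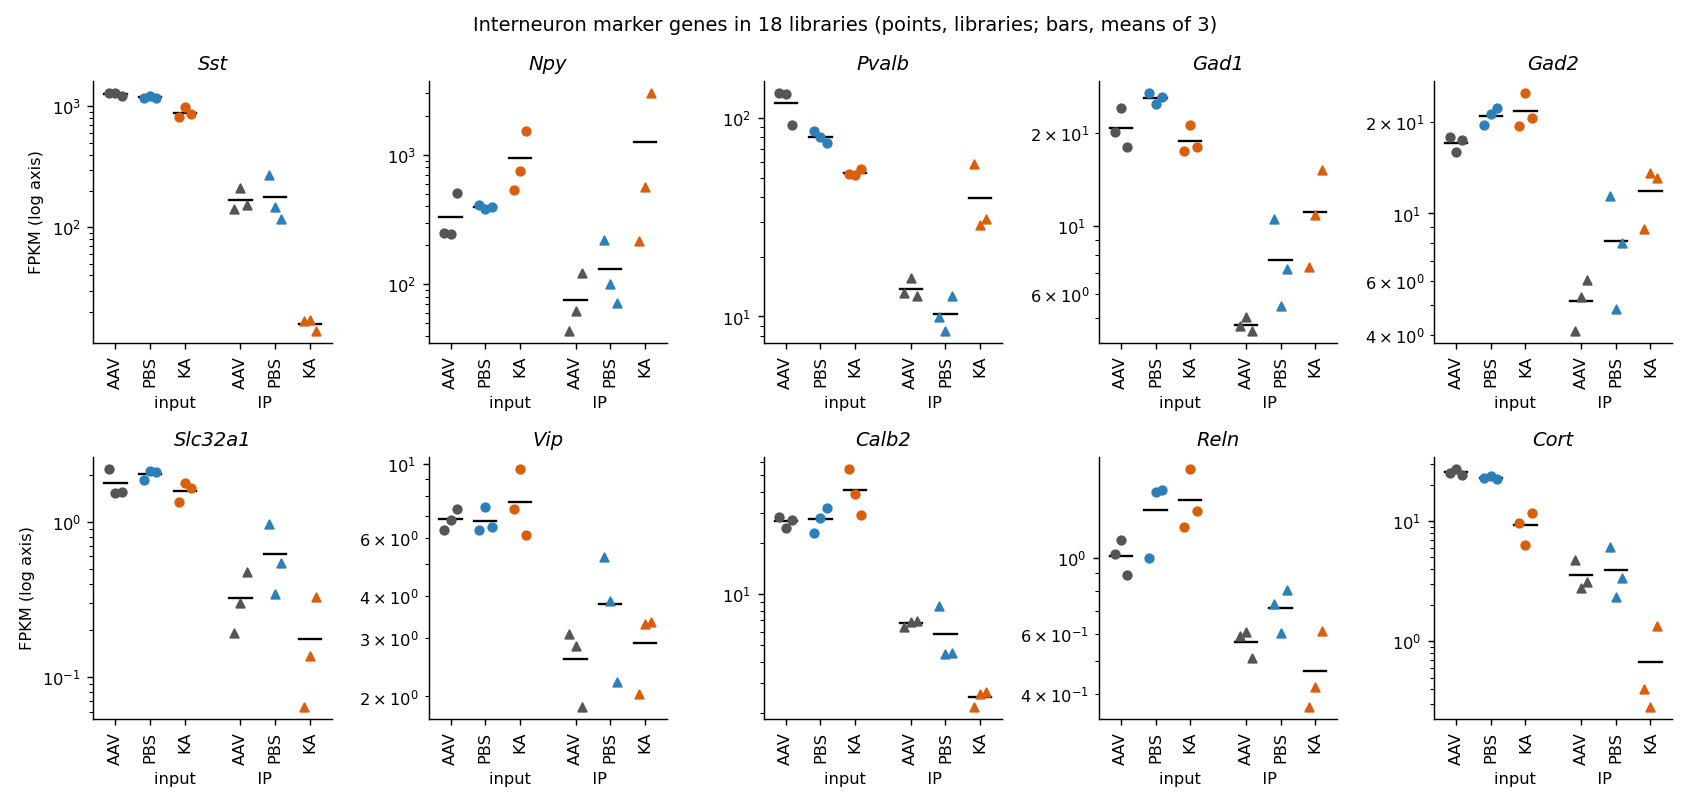
FPKM (log axis) of each of the 10 genes in the input (circles) and IP (triangles) libraries of the AAV-Control, PBS and KA groups, with a point for each library and a bar for the mean of 3. Sst, Calb2 and Cort (2 to 10 counts in KA) in IP lie lower in KA than in every control library. Pvalb in KA lies lower in input and higher in IP than in every control library.

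To ask which markers changed, counts of genes above 1 FPKM in all libraries compared were tested with edgeR's quasi-likelihood test. A gene was called when its Benjamini-Hochberg adjusted p was under 0.05 and its log2 fold change was 1 or more in size. In the input, KA against AAV-Control called 2 of 9 tested markers, Pvalb and Cort, both lower. Of 10809 genes 2.7% were called there, 2.52% higher and 0.185% lower. KA against PBS called Npy higher and Cort lower in the input, where 5.35% of 10849 genes were called, 4.26% higher and 1.09% lower. In the IP, KA against AAV-Control called 6 of 7 tested markers, 4 higher (Npy, Pvalb, Gad1 and Gad2) and 2 lower (Sst and Calb2), where 11.6% of 9729 genes were called, 6.39% higher and 5.22% lower. KA against PBS called 4 of 7 in the IP, Npy and Pvalb higher and Sst and Calb2 lower, where 17.4% of 9847 genes were called, 8.08% higher and 9.34% lower. These comparisons share the KA libraries. PBS against AAV-Control called 0 markers and 0 genes of any kind by edgeR (0%) in input or IP, with 8.25% of genes in the input and 10.8% in the IP at an unadjusted p under 0.05, and DESeq2 called 14 and 16 genes there, none of them a marker.

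The FPKM values of KA and AAV-Control did not overlap for 7 of the 10 markers in the input, beside 22.6% of genes tested, and for 7 in the IP, beside 37%. KA and PBS did not overlap for 6 in the input, beside 35.9%, and for 5 in the IP, beside 46%. PBS and AAV-Control did not overlap for 4 in the input, beside 10.9%, and for 2 in the IP, beside 13.4%. The shares cover only genes that passed the FPKM filter, whereas the marker counts cover all 10. Counted markers that failed it were Reln (input) and Cort (IP) in KA against AAV-Control, and Slc32a1 and Cort in KA against PBS IP. The median log2 fold change of the tested markers in KA against AAV-Control was -0.13 in the input, beside -0.03 over all genes tested and -0.26 over 14 pan-neuronal genes. In the IP it was 1.25 over the 7 tested markers, beside -0.02 over all genes and 0.98 over 13 pan-neuronal genes. Cort, Slc32a1 and Reln failed the FPKM filter there and are not in this median. Without the filter Slc32a1 was at -0.72 and Reln at -0.13, neither called, and Cort was called lower (adjusted p = 0.0039).

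**Figure D3:**
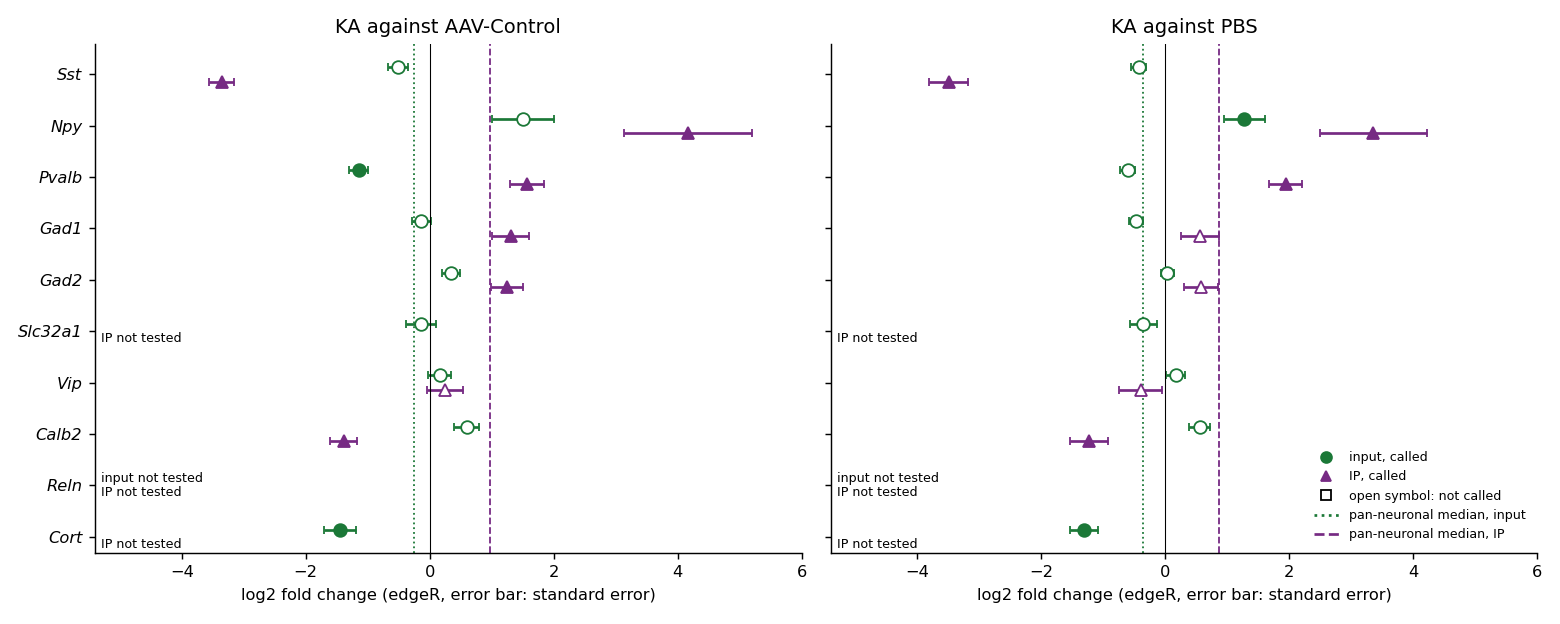
Log2 fold change with its standard error (edgeR) of each gene in KA against AAV-Control (left) and against PBS (right), in input (circles) and IP (triangles); filled symbols were called, open symbols were not, and vertical lines give the pan-neuronal medians. Sst and Calb2 lie left of 0 in the IP while the pan-neuronal median lies right of it, at 0.98 and 0.87.

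Sst encodes somatostatin, the peptide of dendrite-targeting interneurons, and lies on the minus strand at chr16:23889573-23890958 (GRCm38) with no overlapping gene. In the input its FPKM was 824, 986 and 858 in KA, 1285, 1292 and 1218 in AAV-Control, and 1167, 1222 and 1178 in PBS. Every KA sample was below every control sample. The difference was small and did not pass the test against AAV-Control (log2 fold change -0.51, SE 0.161, adjusted p = 0.143). With the run as a covariate it was -0.505 (adjusted p = 0.0162) and within run 1 -0.508 (adjusted p = 3.18e-05), both under the fold threshold. Against PBS it was -0.43 (SE 0.128, adjusted p = 0.029), under the fold threshold. In bulk tissue fewer somatostatin cells and less Sst RNA per cell cannot be told apart. Relative to the pan-neuronal median, the input difference was -0.25 against AAV-Control and -0.08 against PBS.

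In the IP libraries the contrast was far larger. Sst FPKM was 16.82, 17.04 and 13.79 in KA (109 to 135 counts), 141, 212 and 154 in AAV-Control, and 268, 147 and 117 in PBS. All KA values lay below the lowest control value. Sst fell by 3.36 on the log2 scale against AAV-Control (SE 0.200, adjusted p = 1.33e-04), a 10.2-fold lower level, and the log2 fold change against PBS was -3.49 (SE 0.313, adjusted p = 3.92e-05). The call held when any library was left out. Within run 1 the value was -3.31, and it was -3.36 with the run as a covariate. With pan-neuronal scaling it was -4.49.

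The IP to input ratio compares both libraries of a homogenate. For Sst it was 0.133 ± 0.0277 in AAV-Control and 0.150 ± 0.0702 in PBS, close to the median of the 14 pan-neuronal genes (0.139 and 0.162). In KA it was 0.0179 ± 0.00223, whereas the pan-neuronal median was 0.388. Only 0.0474% of 10557 genes expressed in all input libraries had a lower mean ratio in KA. The KA effect in the IP differed from that in the input by -2.83 (SE 0.235, adjusted p = 2.03e-04) with the AAV-Control baseline, where 9.42% of 9180 genes were called, 5.1% higher and 4.32% lower. With the PBS baseline it was -3.08 (SE 0.377, adjusted p = 1.68e-04), where 13.9% of 9305 genes were called, 4.98% higher and 8.88% lower. Of 7 markers tested, 2 were called higher and 2 lower with the first baseline, and 1 higher and 2 lower with the second. Genes of other cell types moved as well. The median IP to input ratio of 10 astrocyte genes was 3.02 in KA, against 7.73 in AAV-Control and 6.66 in PBS, and 7 and 6 of the 10 were called lower in the interaction (median -1.32 and -1.26). The median ratio of 8 microglia genes was 0.0587 in KA, 0.142 in AAV-Control and 0.196 in PBS. The part of these changes in the Sst and Calb2 results was not tested.

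**Figure D4:**
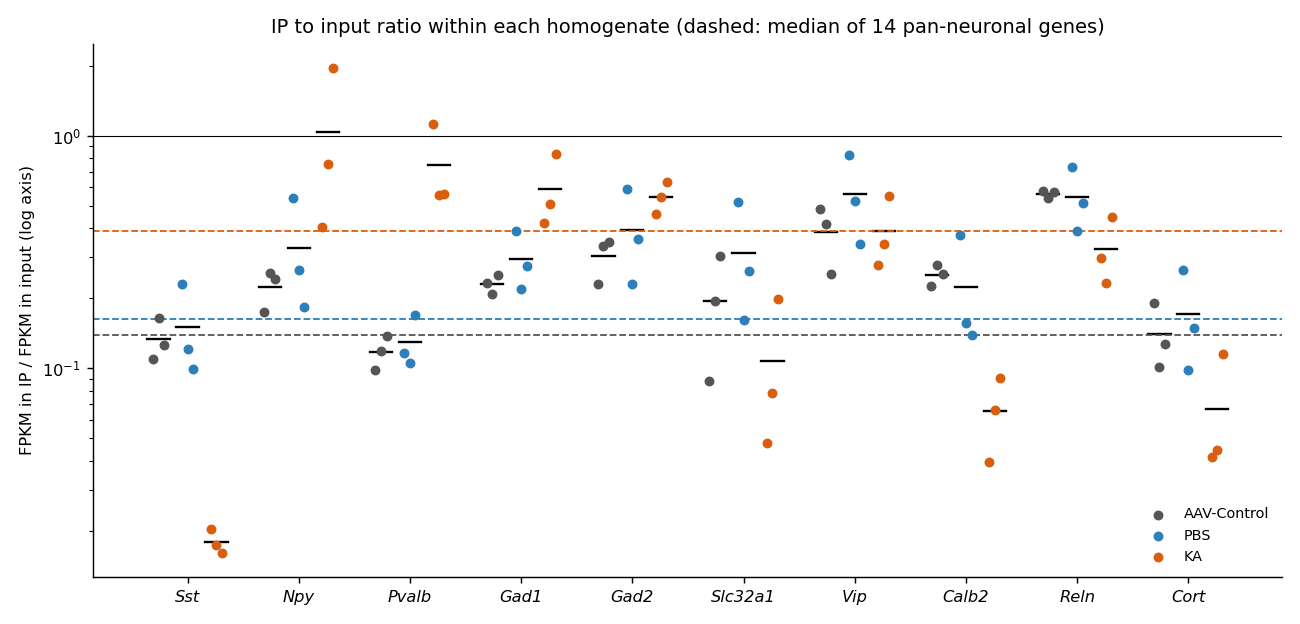
IP to input ratio of FPKM values (log axis), a point for each homogenate, with a bar for the mean of 3 and dashed lines for the median of 14 pan-neuronal genes in each group. In KA the Sst ratio, 0.0161 to 0.0204, lies far below the pan-neuronal line of 0.388, whereas Npy, Pvalb, Gad1 and Gad2 lie above it.

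Cort encodes cortistatin, a peptide related to somatostatin that is made by subsets of interneurons (minus strand, chr4:149125034-149126763). Its input FPKM was 9.59, 6.36 and 11.7 in KA, 25.0, 27.4 and 24.4 in AAV-Control, and 22.9, 23.6 and 22.7 in PBS. KA samples were well below all controls. Cort fell by 1.45 on the log2 scale against AAV-Control (SE 0.256, adjusted p = 0.0193) and had a log2 fold change of -1.32 against PBS (SE 0.226, adjusted p = 0.00209), 2.74-fold and 2.50-fold lower. The first call was lost when any of 4 libraries was left out, KA #1, KA #2, AAV-Control #1 or AAV-Control #2, with values of -1.45, -1.22, -1.505 and -1.425 and adjusted p from 0.0562 to 0.123. With the run as a covariate it was -1.47 (adjusted p = 0.00156), and within run 1 it was -1.71. Pan-neuronal scaling gave -1.16 against AAV-Control, still called, and -0.91 against PBS, where the call was lost. Sst was not called in the input, and the difference between Cort and Sst was not tested.

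In the IP Cort was at 3, 2 and 10 counts in KA, 30, 18 and 27 in AAV-Control, and 66, 18 and 24 in PBS. It failed the FPKM filter in KA and was not tested there. The KA counts lay below all control counts, 2 of them at or under the limit of 3 counts, and no fold is given. In the controls Cort was lower in IP than in input, with a log2 fold change of -2.70 in AAV-Control (adjusted p = 2.06e-04) and -2.37 in PBS (adjusted p = 2.67e-05).

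Npy encodes neuropeptide Y, which in the healthy hippocampus is a peptide of interneurons (plus strand, chr6:49822710-49829507). Input FPKM was 538, 751 and 1541 in KA, 248, 243 and 510 in AAV-Control, and 410, 381 and 395 in PBS. All KA samples exceeded all controls, and in both groups spread over runs 1 and 2 sample #3, from run 2, was the highest. In the main edgeR test, which has no run term, Npy did not pass against AAV-Control (log2 fold change 1.51, SE 0.496, adjusted p = 0.154). It passed with samples #1 to #3 paired as blocks (1.45, adjusted p = 4.97e-04), with the run as a covariate (1.465, adjusted p = 1.26e-04) and within run 1 (1.40, adjusted p = 1.99e-10). It also passed without AAV-Control #3 (2.04, adjusted p = 0.014). Against PBS it rose by 1.28 (SE 0.336, adjusted p = 0.0174), a call that was lost without KA #3 (0.64), PBS #1 (1.35), PBS #2 (1.25) or PBS #3 (1.22).

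In the IP the Npy values spread widely. FPKM was 218, 568 and 3010 in KA, 43.25, 62.08 and 123.0 in AAV-Control, and 220, 101 and 72.2 in PBS. KA and AAV-Control did not overlap, while KA #1 lay just below PBS #1. Npy rose by 4.17 on the log2 scale against AAV-Control (SE 1.03, adjusted p = 0.0273) and by 3.36 against PBS (SE 0.862, adjusted p = 0.0122). Without KA #3 the values were 2.32 and 1.52, still called. The call against AAV-Control was lost without AAV-Control #1 (3.86, adjusted p = 0.0885) or #2 (4.00, adjusted p = 0.093), and that against PBS without PBS #3 (3.03, adjusted p = 0.066). Within run 1 the value against AAV-Control was 2.97, and relative to the pan-neuronal median it was 3.19. Pan-neuronal scaling gave 2.83 against AAV-Control and 2.32 against PBS, both called.

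The Npy ratio of IP to input was 0.404, 0.757 and 1.95 in the KA homogenates, 0.174 to 0.256 in AAV-Control, and 0.537, 0.265 and 0.183 in PBS. KA lay above AAV-Control, while PBS #1 lay above KA #1. KA #3 held more Npy per unit of RNA in the IP than in the input, and the other KA homogenates held less. The KA effect did not differ between IP and input past the threshold without pairing (2.67, SE 1.196, adjusted p = 0.176 with the AAV-Control baseline; 2.06, SE 1.04, adjusted p = 0.161 with PBS). With IP and input paired by homogenate it did (1.99, adjusted p = 0.00586; 1.502, adjusted p = 0.0305). Of 7 genes of dentate granule cells tested in the input, 1 was called in KA against AAV-Control, and their median was -0.20, with Rfx3 at -0.72 (adjusted p = 0.0181) and Stxbp6 at -0.71 (adjusted p = 0.0719). In the IP 3 of 6 were called higher (median 1.35). The called input gene, Pdyn, which encodes prodynorphin and marks granule cells, was higher in the input (1.795, adjusted p = 0.00607) and in the IP (2.67, adjusted p = 0.0018). The part of granule cells in the Npy result was not tested.

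Vip encodes vasoactive intestinal peptide of interneurons that mostly target other interneurons (plus strand, chr10:5639218-5647617). It did not pass the test between groups in any comparison. Input FPKM was 7.30, 9.69 and 6.11 in KA, 6.33, 6.77 and 7.34 in AAV-Control, and 6.35, 7.43 and 6.45 in PBS. The groups overlapped in input and in IP. The log2 fold change of KA against AAV-Control was 0.16 in the input (SE 0.185, adjusted p = 0.729) and 0.25 in the IP (SE 0.284, adjusted p = 0.587), and against PBS it was 0.17 and -0.40. In the IP FPKM was 1.86 to 3.35 in KA and AAV-Control and 2.21 to 5.25 in PBS. Scaled by pan-neuronal genes, the IP value turned to -0.96 against AAV-Control and to -1.28 against PBS, the latter called (adjusted p = 8.50e-04). By construction this scaling moved the median of all genes to -1.16 and -0.83. Against PBS 3969 of 9847 genes were called lower with it.

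Pvalb encodes parvalbumin, the calcium-binding protein of fast-spiking basket and axo-axonic cells (minus strand, chr15:78191114-78206400). Input FPKM was 52.3, 51.7 and 55.0 in KA, 133, 131 and 92.4 in AAV-Control, and 85.85, 79.99 and 74.52 in PBS. The groups were fully apart, with KA lowest and AAV-Control highest. Pvalb fell by 1.15 on the log2 scale against AAV-Control (SE 0.154, adjusted p = 0.00618), a 2.22-fold lower level, and the call was lost without KA #1 (-1.11, adjusted p = 0.0583). It was -1.34 within run 1 and -1.14 with the run as a covariate. Scaled by pan-neuronal genes it was -0.88, under the fold threshold. Against PBS it was -0.61 (SE 0.123, adjusted p = 0.00486), under the fold threshold as well, and PBS against AAV-Control gave -0.52 (adjusted p = 0.561).

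In the IP the direction was the opposite. Pvalb FPKM was 58.8, 28.8 and 30.9 in KA, 13.1, 15.6 and 12.7 in AAV-Control, and 9.95, 8.41 and 12.6 in PBS. Every KA value was above every control value. Pvalb rose by 1.57 on the log2 scale against AAV-Control (SE 0.275, adjusted p = 0.00783), a 2.96-fold higher level, and by 1.94 against PBS (SE 0.265, adjusted p = 5.05e-04), and these calls held when any library was left out. The value was 1.68 within run 1. Scaled by pan-neuronal genes it was 0.47 against AAV-Control and no longer called (adjusted p = 0.232), but 1.17 and called against PBS (adjusted p = 0.00153).

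The Pvalb ratio of IP to input was 0.747 ± 0.327 in KA, with 1.13 in the highest homogenate, against 0.118 ± 0.0196 in AAV-Control and 0.130 ± 0.0344 in PBS. In the controls it lay below the pan-neuronal median ratio, and in KA above it. The KA effect was larger in IP than in input by 2.73 (SE 0.327, adjusted p = 4.80e-04) with the AAV-Control baseline and by 2.55 (SE 0.309, adjusted p = 1.54e-04) with PBS, and remained called with pan-neuronal scaling, at 1.35 and 1.37.

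Calb2 encodes calretinin, the calcium-binding protein of interneuron-selective cells and, in the mouse, of mossy cells (minus strand, chr8:110137502-110168210). Input FPKM was 54.8, 39.1 and 29.4 in KA, 28.6, 24.6 and 27.4 in AAV-Control, and 22.9, 28.2 and 32.2 in PBS. KA values spread widely and overlapped those of PBS. The log2 fold change was 0.60 against AAV-Control (SE 0.202, adjusted p = 0.161) and 0.55 against PBS (SE 0.168, adjusted p = 0.0327), under the fold threshold. In run 1 alone it was 0.82.

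In the IP Calb2 and Sst were the 2 of 7 tested markers called lower. FPKM was 2.16, 2.59 and 2.67 in KA, 6.44, 6.84 and 6.94 in AAV-Control, and 8.56, 4.42 and 4.48 in PBS. The KA values stood apart from all controls. Calb2 fell by 1.39 on the log2 scale against AAV-Control (SE 0.220, adjusted p = 0.00515) and had a log2 fold change of -1.24 against PBS (SE 0.308, adjusted p = 0.0106), the latter lost without PBS #1 (-0.86). Pan-neuronal scaling gave -2.55 and -2.05. Calb2 had an IP to input ratio of 0.0655 ± 0.0256 in KA, 0.252 ± 0.0263 in AAV-Control and 0.223 ± 0.131 in PBS. The log2 effect of KA in IP minus that in input was -1.98 (SE 0.291, adjusted p = 0.00115) with the AAV-Control baseline and -1.81 (SE 0.371, adjusted p = 0.00378) with PBS. Among the tested markers Sst and Calb2 thus shared a lower IP level after KA, with input values that lay on either side of 0. Cort and Slc32a1 failed the FPKM filter in these comparisons. Without it Cort was called lower against AAV-Control (adjusted p = 0.0039) and PBS (adjusted p = 3.39e-04), on few counts. Slc32a1 was called lower against PBS only (adjusted p = 0.0423). The Cort ratio was 0.0670 in KA, 0.140 in AAV-Control and 0.171 in PBS, and that of Slc32a1 was 0.108, 0.195 and 0.314.

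Gad1 encodes GAD67, the main enzyme of GABA synthesis (plus strand, chr2:70553072-70602014). The antisense gene Gad1os overlaps it, at 0 to 7 counts per library. Input FPKM was 17.4, 21.2 and 18.1 in KA, 20.2, 24.2 and 18.1 in AAV-Control, and 27.1, 25.0 and 26.3 in PBS. KA and AAV-Control overlapped, and the log2 fold change was -0.13 (SE 0.150, adjusted p = 0.722), or 0.15 with pan-neuronal scaling. PBS lay above KA, with -0.48 for KA against PBS (SE 0.115, adjusted p = 0.0116), under the fold threshold.

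Gad2 encodes GAD65, the synaptic form of the enzyme (plus strand, chr2:22622205-22693874). Input FPKM was 19.4, 24.8 and 20.6 in KA, 17.8, 15.9 and 17.4 in AAV-Control, and 19.5, 21.1 and 22.2 in PBS. KA and PBS overlapped, and AAV-Control was below both. The log2 fold change was 0.34 against AAV-Control (SE 0.148, adjusted p = 0.278) and 0.03 against PBS (SE 0.108, adjusted p = 0.843). No call was made for either decarboxylase in the input.

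In the IP Gad1 FPKM was 7.35, 10.8 and 15.1 in KA, 4.70, 5.04 and 4.53 in AAV-Control, and 10.5, 5.49 and 7.22 in PBS. Gad2 FPKM was 8.88, 13.6 and 13.1 in KA, 4.11, 5.32 and 6.06 in AAV-Control, and 11.45, 4.87 and 8.01 in PBS. For both genes KA lay above AAV-Control and overlapped PBS. Gad1 rose by 1.31 on the log2 scale (SE 0.298, adjusted p = 0.02) and Gad2 by 1.25 (SE 0.264, adjusted p = 0.0156) against AAV-Control. Both calls were lost without KA #2, KA #3, AAV-Control #1 or AAV-Control #2, with 0.93 for Gad1 without KA #3. Within run 1 Gad1 was 0.965, under the fold threshold, and Gad2 was 1.32. Scaled by pan-neuronal genes the values were 0.09 and 0.09. Against PBS neither was called, at 0.56 for Gad1 (adjusted p = 0.175) and 0.57 for Gad2 (adjusted p = 0.129), which turned to -0.31 and -0.24 with pan-neuronal scaling.

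The Gad1 ratio of IP to input was 0.589 ± 0.219 in KA, 0.230 ± 0.0214 in AAV-Control and 0.295 ± 0.0861 in PBS. For Gad2 it was 0.547 ± 0.0877, 0.305 ± 0.0644 and 0.393 ± 0.181. The KA effect on Gad1 was larger in IP than in input by 1.46 (SE 0.353, adjusted p = 0.0177) with the AAV-Control baseline, a call lost without homogenate KA #2, AAV-Control #1 or AAV-Control #2, where adjusted p was 0.0649 to 0.0905. With pan-neuronal scaling it was -0.07. With the PBS baseline Gad1 was not called (1.02, adjusted p = 0.0566). For Gad2 the difference was 0.92 (adjusted p = 0.0761), or -0.56 with that scaling, and 0.53 with the PBS baseline (adjusted p = 0.264).

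Slc32a1, the gene of the vesicular GABA transporter (plus strand, chr2:158610767-158615748), was low throughout. Input FPKM was 1.34, 1.76 and 1.65 in KA, 2.19, 1.54 and 1.56 in AAV-Control, and 1.85, 2.13 and 2.07 in PBS. KA overlapped AAV-Control (log2 fold change -0.14, SE 0.238, adjusted p = 0.828, and 0.15 with pan-neuronal scaling) and lay below PBS without passing the test (-0.36, SE 0.213, adjusted p = 0.24). In the IP it was at 2, 4 and 10 counts in KA, 5, 8 and 17 in AAV-Control, and 43, 11 and 16 in PBS, and was not tested. Gad1, Gad2 and Slc32a1 were not called in the input in either KA comparison, nor were Sst, Vip and Calb2.

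Reln encodes reelin, which is secreted by interneurons of several layers and by Cajal-Retzius cells (minus strand, chr5:21884454-22344702). It failed the FPKM filter and was not tested. Input FPKM was 1.23, 1.82 and 1.37 in KA, 1.02, 1.13 and 0.887 in AAV-Control, and 0.998, 1.55 and 1.57 in PBS. KA lay above AAV-Control and overlapped PBS. In the IP the values were 0.367 to 0.611 in KA, 0.510 to 0.608 in AAV-Control and 0.605 to 0.803 in PBS. Without the FPKM filter the log2 fold change of KA against AAV-Control was 0.51 in the input (adjusted p = 0.14).

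IP against input called 8 of 8 tested markers lower in AAV-Control, where 26.4% of 9961 genes were called and 13.1% were called lower. In PBS 7 of 8 were called lower, where 27.1% of 10401 genes were called and 12.3% were called lower, and Vip was not called (-0.65, adjusted p = 0.0774). Log2 fold changes ran from -2.95 (Pvalb) to -1.27 (Vip) in AAV-Control. In KA 3 of 7 were called lower, Sst (-5.59, SE 0.165, adjusted p = 4.14e-06), Calb2 (-3.82, SE 0.238, adjusted p = 3.54e-05) and Vip (-1.17, SE 0.249, adjusted p = 0.00797), where 12.6% of 10098 genes were called and 4.51% were called lower. Pvalb (-0.22, adjusted p = 0.514), Gad1 (-0.52, adjusted p = 0.191) and Npy (0.71, adjusted p = 0.579) were not called in KA. With pan-neuronal scaling 0 of the 8 were called lower in AAV-Control or in PBS, with Sst at -0.10 and -0.11 and Pvalb at -0.32 and -0.34. This scaling moved the median of all genes, by construction, to 2.67 and 2.55. Only 7 of 9961 and 12 of 10401 genes were called lower there, so the count of 0 says little about the markers.

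Among 35 other genes of interneurons, 26 were tested in the input, where the median log2 fold change of KA against AAV-Control was -0.26, beside -0.26 over the pan-neuronal genes. Values ran from -1.11 to 1.81. Of the 26, 1 was called higher and 0 lower, beside 2.52% and 0.185% of all genes tested. Kit (-0.66, adjusted p = 0.0688) and Lamp5 (-1.11, adjusted p = 0.131), a marker of neurogliaform cells, were not called. Against PBS Lamp5 was called lower (-1.37, adjusted p = 0.00117), and Cnr1, the cannabinoid receptor of cholecystokinin basket cells, was under the fold threshold (-0.81, adjusted p = 0.00133). In all 1 of 26 was called higher and 1 lower against PBS, beside 4.26% and 1.09% of all genes tested, and the highest value was 2.10.

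In the IP, 9 of the 35 were tested in KA against AAV-Control. Of these, 2 were called higher and 3 lower, beside 6.39% and 5.22% of all genes tested. Cck, the gene of cholecystokinin in basket cells and pyramidal cells, rose by 3.04 (adjusted p = 0.00471), and Crhbp, a binding protein of corticotropin-releasing hormone, by 2.66 (adjusted p = 0.0112). Grin3a, an NMDA receptor subunit, was called lower (-1.65, adjusted p = 0.00238). Against PBS the values were 3.06 for Cck (adjusted p = 7.30e-04), 2.76 for Crhbp (adjusted p = 0.00179) and -1.55 for Grin3a (adjusted p = 3.43e-04). Of 10 tested against PBS, 3 were called higher and 3 lower, beside 8.08% and 9.34% of all genes tested. The IP to input ratio of Cck was 0.359 ± 0.176 in KA, 0.0453 ± 0.00515 in AAV-Control and 0.0487 ± 0.0145 in PBS. The list as a whole went the other way. Over its genes with a ratio, the median was 0.278 in KA, 0.332 in AAV-Control and 0.442 in PBS. The pan-neuronal median ratio was 0.388, 0.139 and 0.162.

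Of 13 receptor and signalling genes for the peptides and reelin, 10 were tested in the input. Npy2r, which encodes a presynaptic receptor of neuropeptide Y, was called lower in KA than in AAV-Control (-1.47, SE 0.253, adjusted p = 0.0179). Npy5r (-0.82, adjusted p = 0.0626), Npy1r (-0.47) and Lrp8 (0.35), a reelin receptor, were not called. Against PBS none was called, with -0.80 for Npy2r (adjusted p = 0.00274) and -0.71 for Npy1r (adjusted p = 0.00165), both under the fold threshold. In the IP 4 were tested and 0 were called in either KA comparison by edgeR, and none of the 4 was at an unadjusted p under 0.05.

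Over the 9 input libraries the genes whose log2(FPKM + 1) most resembled each marker were Olfm1 for Sst (Pearson r = 0.969), Thbs3 for Npy (0.951), Vstm2a for Pvalb (0.961), Fez2 for Calb2 (0.971) and Lmo1 for Cort (0.970). They were chosen as the highest of 10557 genes, and the 9 libraries share their groups, runs and depths, so that these are descriptions only. Among the markers themselves Sst, Pvalb and Cort varied together (r = 0.849 to 0.876), and Npy varied against Pvalb (r = -0.816) and Sst (r = -0.798). Gad1 and Gad2 varied little together (r = 0.143).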

How the data were processed

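The authors aligned reads of the 18 IP and input libraries to mm10 with STAR. The submitters' processing notes name featureCounts and edgeR; annotation, strand and multi-mapping settings are not given in the sources used here. Each library has deposited counts, whole numbers per gene symbol, and deposited FPKM, which the authors scaled by library size and gene length. Counts were tested with edgeR 4.0.16 (quasi-likelihood F test, TMM, Benjamini-Hochberg adjustment) in R 4.3.3, in genes with FPKM above 1 in all libraries compared; the code was tested on simulated data. Only the groups compared entered a fit. An exact permutation test of 3 against 3 samples cannot go below 0.1, so none is quoted. Samples are pools, and p-values measure the spread between pools only.

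Alternatives were DESeq2 1.42.0, limma-voom (limma 3.58.1), RLE size factors, no filter, scaling by pan-neuronal genes, run terms, replicate blocks and leaving out libraries. Deviations from group means correlated between same-numbered KA and AAV-Control libraries (r = 0.348 to 0.551) and between IP and input of a homogenate (r = 0.155 to 0.752). Same-numbered KA and AAV-Control samples share a run, so this correlation cannot show a pairing by number beyond the run. The tests reported have no replicate block, and the blocked value is given where it changes a call. Same-numbered KA and PBS libraries showed no positive correlation of this size (r = -0.294 to 0.106).

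The markers, lists and tests were chosen with earlier results of these data known. From other lists at most 4 genes a comparison were named, by smallest unadjusted p, and the genes most like a marker by correlation. Some genes of these lists are not reported here. Gene coordinates are from GENCODE vM21 on GRCm38.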

Additional observations from a re-analysis of the deposited data

Results flagged for a closer look

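A test of the interaction between KA and purification was passed by 4 of 7 tested markers with the AAV-Control baseline, beside 9.42% of 9180 genes. The log2 effect of KA in IP minus that in input was -2.83 for Sst, 2.73 for Pvalb, 1.46 for Gad1 and -1.98 for Calb2. With the PBS baseline, where 13.9% of 9305 genes were called, they were -3.08 for Sst, 2.55 for Pvalb and -1.81 for Calb2. Pan-neuronal genes had a median difference of 1.27 and 0.89 in these comparisons, with 8 and 6 of 13 called higher and 0 lower. Scaled by pan-neuronal genes, which shifts the median of all genes by construction to -1.476 with the AAV-Control baseline, the values there were -4.28 for Sst, 1.35 for Pvalb, -0.07 for Gad1, no longer called, and -3.47 for Calb2.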

How the results depend on the processing

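Over all markers and comparisons, 401 values kept their direction and side of the threshold when 1 library or homogenate was left out, 28 lost and 4 gained a call, and 14 changed sign. Under the other settings the numbers were 485, 14, 17 and 32. The cause of these changes was not tested. No called value changed sign except in IP against input with pan-neuronal scaling, and for Gad1 in the AAV-Control interaction under that scaling.

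Pan-neuronal scaling moves the median log2 fold change of all genes, by construction, to between -1.476 and 2.667. Values that changed sign were, in KA against AAV-Control, Gad1 0.151 and Slc32a1 0.155 in the input and Vip -0.959 in the IP. In KA against PBS they were Slc32a1 0.052 in the input, and Gad1 -0.312 and Gad2 -0.237 in the IP. In PBS against AAV-Control they were Vip -0.109 and Calb2 -0.054 in the input, and Sst -0.198 and Cort -0.166 in the IP. In IP against input they were Pvalb 1.031, Gad1 0.606 and Gad2 0.531 in KA, and Npy 0.710, Gad1 0.672, Gad2 1.090, Vip 1.421 and Calb2 0.820 in AAV-Control. In PBS they were Npy 1.033, Gad1 0.850, Gad2 1.213, Vip 1.847, Calb2 0.378 and Cort 0.059. In the KA effect in IP minus input they were Gad1 -0.066, Gad2 -0.560 and Vip -1.437 with the AAV-Control baseline, and Gad1 -0.244 and Gad2 -0.682 with PBS. Markers called fell to 1 in KA against PBS input, where 1194 of 10849 genes were called. They fell to 3 in KA against AAV-Control IP, where 6120 of 9729 genes were called. In IP against input, 2 markers in AAV-Control and 3 in PBS were called, all of them higher and 0 lower. There 9376 of 9961 and 9816 of 10401 genes were called.

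DESeq2 called 1 marker in KA against PBS input, beside 575 of 10849 genes, and the call of Npy was lost (1.265, adjusted p = 0.0583). Without the FPKM filter 6 markers were called in IP against input of KA, beside 3146 of 31478 genes. In the interaction with PBS 5 were called, beside 2635 of 39047 genes. Vip in KA against AAV-Control IP was -0.084 within run 1. Npy in IP against input of KA was -0.008 by limma-voom and -0.025 with the replicate block. With the block, markers called were 3 of 9 in KA against AAV-Control input and 6 of 7 in the IP. Genes called there were 368 of 10809 and 1275 of 9729. Numbers shared by KA and PBS samples are only numbers, and with them as a block Npy in the IP was 2.51 (adjusted p = 0.095).

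Leaving out 1 library at a time, markers called ranged from 0 to 3 in KA against AAV-Control input, 1 to 2 in KA against PBS input, 3 to 6 in KA against AAV-Control IP and 3 to 4 in KA against PBS IP. They ranged from 2 to 3 in IP against input of KA, were 7 in AAV-Control and in PBS, and ranged from 3 to 5 and 3 to 4 in the interactions. In the same order, genes called ranged from 133 to 588, 471 to 791, 779 to 1496 and 1464 to 1905 between groups. For IP against input the ranges were 1047 to 1567, 1647 to 3041 and 2773 to 3050. For the interactions they were 483 to 1256 and 1050 to 1327. Ranges that crossed 0 were, in KA against AAV-Control input, Vip -0.001 to 0.281, and in KA against PBS input Gad2 -0.044 to 0.132. In PBS against AAV-Control input they were Sst -0.110 to 0.005, Vip -0.077 to 0.119 and Calb2 -0.001 to 0.135, and in the IP Sst -0.292 to 0.403, Calb2 -0.569 to 0.046 and Cort -0.309 to 0.432. Npy in IP against input of KA ran from -0.504, without KA #3, to 0.887, and Vip in the AAV-Control interaction from -0.199 to 0.279. Without AAV-Control #3, PBS against AAV-Control called 365 genes in the input and 546 in the IP. Genes called in KA against AAV-Control input went from 292 to 1169 without the filter, 535 with pan-neuronal scaling, 682 within run 1 and 133 to 588 with 1 library left out, and in the IP from 1130 to 2823 without the filter and 6120 with pan-neuronal scaling. Depth limits Cort and Slc32a1 in the IP, at 2 to 66 counts.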

Other observations

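Sample #1 of the PBS IP libraries had the highest level of its group for Sst (268 FPKM), Npy (220 FPKM), Gad1 (10.5 FPKM), Gad2 (11.45 FPKM), Calb2 (8.56 FPKM), Vip (5.25 FPKM), Slc32a1 (0.960 FPKM) and Cort (6.09 FPKM), 8 of the 10 markers.

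CA pyramidal cell genes were not called in the input of KA against AAV-Control (0 of 9 by edgeR; 5 had an unadjusted p under 0.05), while Spink8 (-1.65), Neurod6 (-1.31) and Fibcd1 (-1.24) were called lower against PBS, of 9 tested. The summed input FPKM of 11 such genes was 279 to 286.9 in KA, 377.4 to 487.5 in AAV-Control and 431.8 to 471.6 in PBS. For 10 dentate granule cell genes it was 85.45 to 89.4, 97.07 to 111.6 and 97.67 to 119.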
